A study of Homo sapiens with 6 samples.

Results

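The 44 genes described here encode assembly factors of the large (60S) ribosomal subunit. They are proteins that build the subunit without staying in it. They were taken from a list of gene symbols that was chosen with earlier results of these data known. All 44 were found, among 16444 genes in the authors' spike-in table and 12075 genes in their FPKM table. RNA was measured by sequencing in KMS-27, an established human multiple myeloma cell line derived from malignant plasma cells and labelled as bone marrow. One group was transfected with a control siRNA (siControl, 3 libraries). The other (siChe-1, 3 libraries) received an siRNA that targets AATF, the gene of the Che-1 protein. The sources used here give no time after transfection, dose or siRNA sequence. The labels name no other treatment or genotype, and they leave unsaid whether replicate libraries stem from different cultures. The p-values below therefore reflect the scatter of these libraries alone, which could be purely technical. All values come from 1 cell line and, as far as the labels say, a single siRNA condition.

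Ribosomal RNA is transcribed in the nucleolus as a long precursor, and the large subunit forms around the part of it that follows the first internal spacer. Scaffold proteins fold the RNA domains, DEAD-box helicases remodel RNA contacts, methyltransferases modify bases and riboses, and an endonuclease cuts the second internal spacer (ITS2). GTPases and large AAA ATPases then drive release of the early factors, after which NMD3 carries the particle through the nuclear pore and cytoplasmic factors mature it. Plasma cells and many myeloma cells secrete large amounts of immunoglobulin, which puts a high demand on protein synthesis. Che-1 is known as a protein that binds RNA polymerase II and, in the nucleolus, as part of the machinery that assembles the small subunit.

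Because most of these genes moved in the same direction, the promoters of 4 of them are shown first, with the matches to a pair of motifs found by script. RefSeq promoter windows on GRCh38.p14, which run from 250 bases before to 50 bases after the annotated start (300 bases), were matched by symbol for 37 of the 44 genes. The 7 genes with no entry are BOP1, DDX18, MAK16, RPF2, RRP1B, RRS1 and RSL1D1. The motifs searched were the E-box CACGTG, bound by MYC-family and related factors, and the ETS core CCGGAAG. Both strands were read, and the E-box is its own reverse complement. The 2 motifs cannot overlap each other in sequence, but ETS cores on opposite strands can. The sequences are given in the direction of the gene, in lower case, with motif matches in capitals. NOP16 (chr5:176388549-176388848, minus strand) and SURF6 (chr9:133336139-133336438, minus strand) are shown as strong falls, MRTO4 (chr1:19251555-19251854, plus strand) as a strong fall with an E-box just after its start, and GNL3L (chrX:54529969-54530268, plus strand) as the only gene of the set whose relative change was above 0. These 4 were chosen after their values had been seen.
NOP16: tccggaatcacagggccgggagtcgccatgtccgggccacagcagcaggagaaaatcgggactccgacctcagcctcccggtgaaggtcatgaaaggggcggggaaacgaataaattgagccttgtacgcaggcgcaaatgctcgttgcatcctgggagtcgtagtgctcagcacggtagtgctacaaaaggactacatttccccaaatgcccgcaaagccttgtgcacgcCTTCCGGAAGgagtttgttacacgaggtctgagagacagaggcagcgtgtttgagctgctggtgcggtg
SURF6: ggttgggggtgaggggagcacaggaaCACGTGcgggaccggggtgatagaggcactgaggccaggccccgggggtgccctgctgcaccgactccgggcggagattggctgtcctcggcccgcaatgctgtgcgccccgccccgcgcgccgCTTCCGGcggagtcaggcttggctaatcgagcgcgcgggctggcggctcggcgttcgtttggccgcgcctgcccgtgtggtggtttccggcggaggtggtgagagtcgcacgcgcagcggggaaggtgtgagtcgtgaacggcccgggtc
MRTO4: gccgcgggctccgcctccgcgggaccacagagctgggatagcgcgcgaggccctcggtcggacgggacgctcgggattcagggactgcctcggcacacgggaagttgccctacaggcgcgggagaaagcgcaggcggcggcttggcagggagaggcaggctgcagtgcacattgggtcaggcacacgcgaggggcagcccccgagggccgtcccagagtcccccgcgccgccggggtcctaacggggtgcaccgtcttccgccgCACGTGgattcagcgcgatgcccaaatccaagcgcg
GNL3L: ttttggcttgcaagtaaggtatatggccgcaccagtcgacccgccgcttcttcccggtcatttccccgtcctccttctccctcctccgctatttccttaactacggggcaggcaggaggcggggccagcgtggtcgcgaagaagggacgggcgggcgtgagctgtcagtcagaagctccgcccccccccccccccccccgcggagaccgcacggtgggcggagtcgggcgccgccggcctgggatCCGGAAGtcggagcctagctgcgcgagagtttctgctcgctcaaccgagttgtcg
In NOP16 2 ETS cores on opposite strands overlap at positions -19 and -16 from the start. SURF6 holds an E-box at position -224 and an ETS core at position -100 from the start. In MRTO4 the E-box begins 15 bases after the start, and in GNL3L the ETS core begins at position -5. The E-box was present in 12 of the 37 windows (32.4%), against 7.43% of all 27305 promoters in the RefSeq table and 11.5% of the 4658 promoters of genes tested on the FPKM scale. The ETS core was present in 15 of 37 (40.5%), against 10.7% and 24.4%. Among the windows of genes that fell, 6 of 21 held an E-box (28.6%) and 10 of 21 an ETS core (47.6%). Among those tested and not called, 5 of 14 held each motif (35.7%). A match is a run of letters and no evidence of binding.

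**Figure D1:**
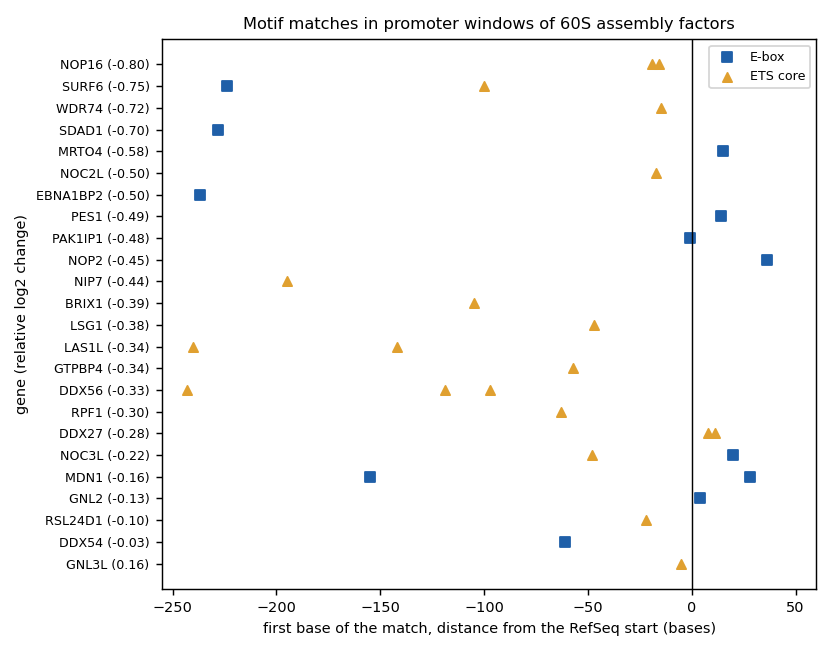
Position of each E-box (squares) and ETS core (triangles) in the promoter windows that hold a match, for genes tested on the FPKM scale. The first base of the match is on the x axis, in bases from the RefSeq start. The genes are ordered by their relative log2 change, given in brackets. NLE1, which holds an E-box, was not tested on that scale and is not drawn. ETS cores occur from NOP16 (-0.80) at the top to GNL3L (0.16) at the bottom, and E-boxes from SURF6 (-0.75) to DDX54 (-0.03).

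The knockdown was checked in AATF itself (hg19 chr17:35306175-35414171, plus strand). Its level was 93.9, 88.8 and 112 FPKM in the siControl libraries and 14.9, 14.8 and 17.2 FPKM in the siChe-1 libraries. FPKM are fragment counts corrected for transcript length and for the size of the library. Here they are summed over a gene's transcripts and rescaled so that the typical gene does not differ between libraries, and the 3 values of a group are in the order of the deposited list, which carries no replicate number. The groups of AATF did not overlap, and the relative log2 change was -2.57 ± 0.11 (SE; limma adjusted p 0.000117). Of 9 plasma cell markers, 8 were present at a mean of at least 10 FPKM. SLAMF7 was lower, with a mean of 3.10 FPKM. The summed level of the 9 was 7328 to 10394 FPKM in siControl and 9074 to 12746 FPKM in siChe-1, most of it from IGJ (mean 9247 FPKM). Of the 8 tested, XBP1 (-0.47, limma adjusted p 0.0201) and MZB1 (-0.46, 0.0398) were lower in siChe-1, CD38 was higher (0.74, 0.0043), and the other 5 were not called. The part of these shifts in the results on the assembly factors was not tested. Of 10 markers of T cells, myeloid cells, fibroblasts, red cells and epithelium, only HBB was in the FPKM table, with a summed level of 0.197 to 0.652 FPKM in siControl and 0.0642 to 0.125 FPKM in siChe-1. Of these markers 6 were in the spike-in table, none above a mean of 12.1 normalized reads (LYZ). Between 19136262 and 21774363 gene reads were recovered for each of the 5 libraries behind the spike-in table, which leaves out the third siChe-1 library, whose gene read depth is unknown. Spike-in reads were 351573 to 519573 in siControl, 835414 and 1041244 in siChe-1 replicates 1 and 2, and 379232 in siChe-1 replicate 3.

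The assembly factors fell relative to other genes. Of the 44, 42 had a mean of at least 10 FPKM and were tested, and 26 of these were lower in siChe-1 at an adjusted p under 0.05 (limma, Benjamini-Hochberg over 6285 genes), while 0 were higher. At the same threshold 15.1% of all tested genes were lower and 15.1% higher. The called falls ran from -0.28 to -0.98 on the log2(FPKM + 1) scale, with adjusted p from 0.000641 to 0.0497. This scale understates the change of low genes. The median relative change of the 42 was -0.41, against -0.00 for all tested genes, and 41 of 42 had a negative value, against 50.6% of all. Among all tested genes 10% had a change below -0.43, and 21 of the 42 lay below that value. The 10 assembly factors in the lowest 5% were below -0.57. The median ratio of siChe-1 to siControl FPKM over all 44 was 0.759, against 0.997 for all tested genes, with the lowest at 0.485 (MAK16) and the highest at 1.12 (GNL3L). In 32 of the 42 genes every siChe-1 library was below every siControl library, against 22.8% of all tested genes. RNA of whole cultures was measured, so fewer cells of a kind and less RNA per cell cannot be told apart.

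Single libraries bore on the count. Without the third siControl value 17 genes were called lower instead of 26, when 8.91% of all tested genes were lower. Without the first or the third siChe-1 value 19 were called lower, when 9.5% and 7.98% of all tested genes were. On the FPKM as deposited, where the median of all tested genes was -0.09, 30 were called lower, and all tested genes split into 592 higher and 1279 lower, against 949 and 948 after rescaling. With upper-quartile scaling (median of all genes 0.06) 19 were called lower, and all genes split into 1221 higher and 713 lower. No assembly factor was called higher under any of these settings, in limma or in edgeR on the recovered reads.

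**Figure D2:**
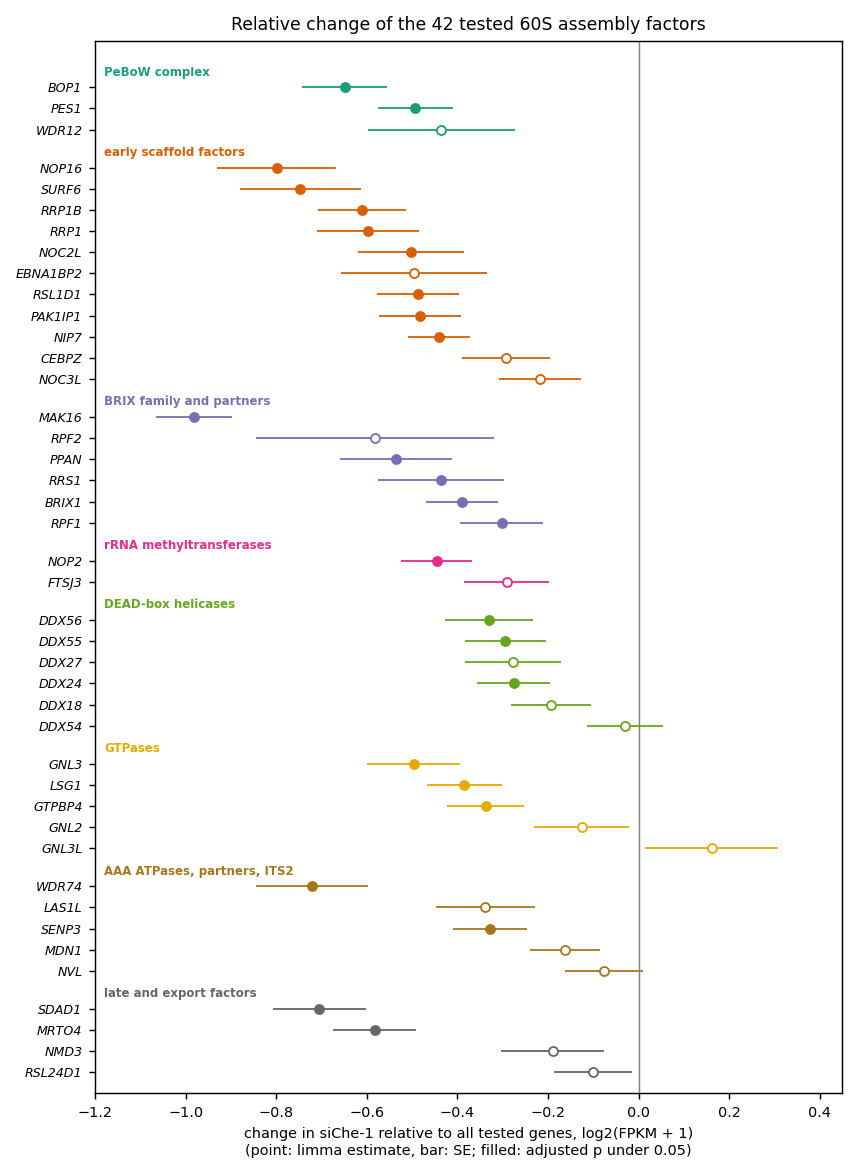
Relative log2 change of each of the 42 tested genes in siChe-1 against siControl on the log2(FPKM + 1) scale, grouped by role, with the limma estimate as a point and its SE as a bar (n = 3 libraries per group). Filled points passed an adjusted p of 0.05; these 26 all lie left of 0, and GNL3L (0.16) is the only point right of it.

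The fall was seen in each siChe-1 library. In the 3 siControl libraries the median level of the 42 genes, set against the siControl mean and taken relative to all tested genes, was -0.04, -0.05 and 0.09 on the log2 scale. In the siChe-1 libraries it was -0.38, -0.43 and -0.35. The 3 siChe-1 values were close to one another and all below the siControl values, whose SD was 0.0761. Summed over all 44 genes, the level was 2169, 2063 and 2393 FPKM in siControl (mean 2208 ± 169, SD, n = 3) and 1688, 1597 and 1698 FPKM in siChe-1 (mean 1661 ± 55.6, SD, n = 3).

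**Figure D3:**
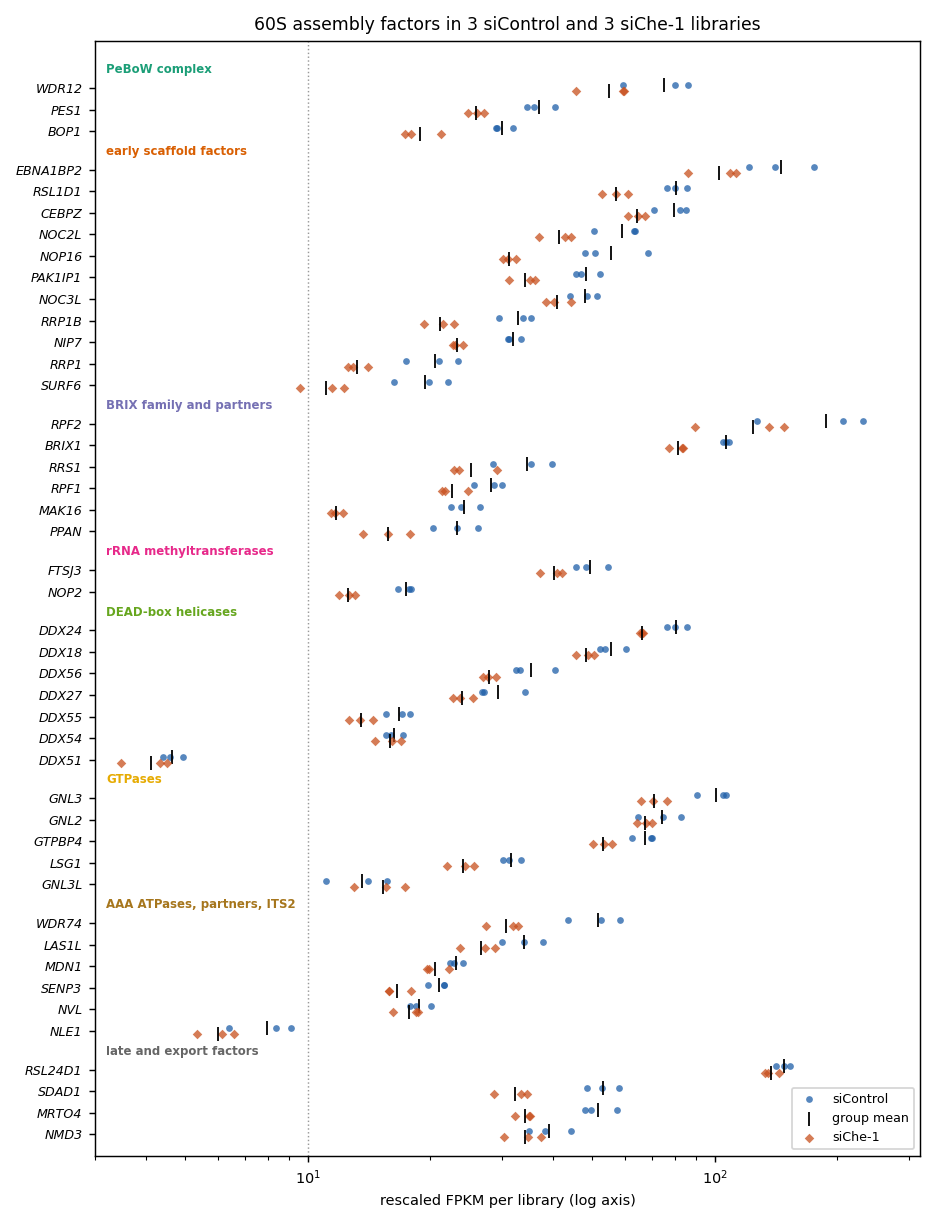
Rescaled FPKM of all 44 genes in each library on a log axis, grouped by role, with siControl as circles, siChe-1 as diamonds, the group means as vertical bars and the minimum of 10 FPKM as a dotted line. The siChe-1 diamonds lie to the left of the siControl circles in most rows, without overlap in MAK16, NOP16 and SDAD1, while the groups overlap in DDX54, NVL, GNL3L and RSL24D1; DDX51 and NLE1 are left of the dotted line.

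The PeBoW complex (PES1, BOP1 and WDR12) is needed for maturation of the rRNAs of the large subunit. BOP1, its scaffold protein on chromosome 8, was at 29.2, 31.9 and 29.02 FPKM in siControl and at 17.3, 21.3 and 17.9 FPKM in siChe-1. The groups were well apart, and BOP1 fell by 0.65 ± 0.09 on the log2 scale (SE; limma adjusted p 0.00305). PES1 (hg19 chr22:30972612-31003000, minus strand) fell from 37.0 ± 3.03 to 25.9 ± 1.19 FPKM (SD, n = 3; log2 change -0.49, limma adjusted p 0.00536). WDR12, a WD-repeat protein, was the most abundant, at 79.7, 59.6 and 86.1 FPKM in siControl and 59.7, 45.7 and 59.6 FPKM in siChe-1. The second siControl value of WDR12 lay between the siChe-1 values, so the groups overlapped, and its change of -0.44 was not called (limma adjusted p 0.0806). On the recovered reads of 5 libraries, where edgeR called 14.8% of all genes lower, WDR12 was called as well (-0.62, adjusted p 0.00803).

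Among the early scaffold factors, which bind the precursor first and hold its domains, 8 of 11 fell, with a median change of -0.50. NOP16 (hg19 chr5:175810940-175815763, minus strand) showed the largest fall. Its level was 50.7, 48.0 and 68.4 FPKM in siControl and 32.4, 31.0 and 30.1 FPKM in siChe-1 (log2 change -0.80 ± 0.13, limma adjusted p 0.00508). The siChe-1 libraries of NOP16 were close together and all below the lowest siControl library. SURF6 (hg19 chr9:136197552-136203047, minus strand), a nucleolar RNA-binding protein whose promoter is shown above, was at 16.2, 19.8 and 22.1 FPKM in siControl and at 9.58, 12.3 and 11.5 FPKM in siChe-1, again without overlap (-0.75, limma adjusted p 0.00664). NIP7, which acts in maturation of the subunit's rRNA, had the smallest p of the group. It was at 31.2, 31.1 and 33.5 FPKM in siControl and at 23.0, 22.7 and 24.1 FPKM in siChe-1, a narrow spread on both sides (-0.44 ± 0.07, limma adjusted p 0.00407).

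The paralogs RRP1 and RRP1B, homologs of a yeast rRNA-processing factor, fell, with log2 changes of -0.60 and -0.61 (limma adjusted p 0.00813 and 0.00425). NOC2L, RSL1D1 and PAK1IP1 fell, with log2 changes of -0.50, -0.49 and -0.48 (limma adjusted p 0.0171, 0.00749 and 0.00769). EBNA1BP2, the most abundant scaffold factor, stood at 140, 122 and 175 FPKM in siControl and at 113, 85.9 and 109 FPKM in siChe-1. Its groups did not overlap, but the second value was the lowest of both groups and the change of -0.50 had an adjusted p of 0.0517 in limma. CEBPZ, a partner of NOC2L in the early particle, was at 82.1, 70.9 and 85.1 FPKM against 64.8, 61.1 and 67.5 FPKM, without overlap (-0.29, limma adjusted p 0.0544). NOC3L was at 51.2, 44.1 and 48.5 FPKM against 44.3, 38.5 and 40.3 FPKM, where the highest siChe-1 value just passed the lowest siControl value (-0.22, limma adjusted p 0.107). On the recovered reads all 11 scaffold factors were called lower by edgeR, against 14.8% of all genes. NOC3L was the nearest to the threshold (-0.33, edgeR adjusted p 0.0435). The read calls of NOC3L and CEBPZ were lost without siControl replicate 1 and without siControl replicate 3.

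The BRIX-domain proteins (BRIX1, PPAN, RPF1 and RPF2) and their partners MAK16 and RRS1 bind early pre-60S RNA, and RPF2 with RRS1 brings in the 5S ribonucleoprotein. In limma 5 of the 6 fell, with a median change of -0.49. MAK16, the partner of RPF1, on chromosome 8, had the largest fall of all 42 tested genes. Its level was 23.8, 22.5 and 26.4 FPKM in siControl and 11.7, 11.4 and 12.2 FPKM in siChe-1 (log2 change -0.98 ± 0.08, limma adjusted p 0.000641). All 3 siChe-1 libraries were at about the same level and far below siControl. MAK16 lay at percentile 0.843 of all tested genes, and its locus in the deposited table also holds TTI2. BRIX1 fell by 0.39 (limma adjusted p 0.0104), RRS1 by 0.44 (0.0497, with groups that just overlapped) and RPF1 by 0.30 (0.0417). The calls of RRS1 and RPF1 were each lost under 5 of the 12 other settings of the FPKM fit.

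RPF2 (hg19 chr6:111303291-111346794, plus strand) was the most abundant gene of the whole set and also the most spread. It was at 207, 127 and 231 FPKM in siControl and at 148, 89.2 and 136 FPKM in siChe-1. The second value was the lowest of both groups, the groups overlapped, and the change of -0.58 ± 0.26 was not called (limma adjusted p 0.133). Its recovered reads were 5237, 3226 and 5825 in siControl replicates 1 to 3 and 3274 and 2363 in siChe-1 replicates 1 and 2 (edgeR log2 change -0.76, adjusted p 0.0171). With DESeq2 in place of edgeR RPF2 was not called. PPAN is uncertain. It shares its locus with the read-through gene PPAN-P2RY11 and with EIF3G, and it was at 23.3, 20.3 and 26.2 FPKM in siControl and 15.7, 13.6 and 17.8 FPKM in siChe-1 (-0.54, limma adjusted p 0.0162). Yet it had only 39, 91 and 46 recovered reads in siControl and, for siChe-1, 56 and 48 reads, and the fit on those gave -0.18 (edgeR adjusted p 0.726).

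Of the rRNA methyltransferases, NOP2, which methylates a cytosine of the large rRNA, fell. It was at 16.7, 17.7 and 18.0 FPKM in siControl and 12.6, 13.1 and 11.9 FPKM in siChe-1, without overlap (-0.45 ± 0.08, limma adjusted p 0.00603). Its transcripts differed. In the authors' deposited table NM_001033714 went from 14.3 to 7.09 FPKM (log2 change -1.01, q 0.000601), and NM_006170 from 3.74 to 5.04 FPKM (0.43, q 0.573). FTSJ3, a ribose methyltransferase, was at 45.5, 48.2 and 54.6 FPKM against 37.3, 42.2 and 41.0 FPKM. Its groups did not overlap, and the change of -0.29 just missed the threshold in limma (adjusted p 0.0515) and passed it in edgeR on reads (-0.35, adjusted p 0.0205). The read call of FTSJ3 was lost without siControl replicate 1 and without siControl replicate 3.

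DEAD-box helicases use ATP to pull RNA strands apart, and 7 of them are in the set. Of the 6 tested 3 fell, and their median change of -0.28 was the smallest of the role groups. DDX24, the most abundant, was at 79.7, 76.2 and 85.5 FPKM in siControl and 65.7, 66.7 and 66.4 FPKM in siChe-1, where the libraries were nearly equal (-0.28 ± 0.08, limma adjusted p 0.0362). DDX55 and DDX56 fell, with changes of -0.29 and -0.33 (limma adjusted p 0.0416 and 0.0378). The calls of DDX24, DDX55 and DDX56 were each lost under 6 of the 12 other settings of the FPKM fit. DDX18 was at 60.5, 52.2 and 53.6 FPKM against 50.5, 48.7 and 45.7 FPKM, with no overlap but a change of only -0.19 (limma adjusted p 0.135). DDX27 was at 26.8, 27.1 and 34.1 FPKM against 23.6, 22.7 and 25.4 FPKM, also without overlap (-0.28, limma adjusted p 0.0842).

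DDX54 (hg19 chr12:113587663-113623284, minus strand) was not called, and its groups overlapped. It was at 16.0, 17.2 and 15.6 FPKM in siControl and 14.7, 16.9 and 16.1 FPKM in siChe-1 (-0.03 ± 0.08, limma adjusted p 0.818). With upper-quartile scaling, which moved the median of all genes to 0.06, it was 0.031. DDX51 was under the minimum and untested on this scale, at 4.60, 4.92 and 4.42 FPKM against 3.48, 4.34 and 4.51 FPKM, which overlap. Its recovered reads, 699, 737 and 636 against 554 and 591, gave -0.28 (edgeR adjusted p 0.111).

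The GTPases act as switches on the maturing particle, and 3 of 5 fell. GNL3 (nucleostemin, hg19 chr3:52719936-52742197, plus strand), known from proliferating and stem cells, was the most abundant. Its level was 104, 90.3 and 107 FPKM in siControl and 76.4, 65.7 and 70.6 FPKM in siChe-1, without overlap (-0.50 ± 0.10, limma adjusted p 0.0107). LSG1, which releases NMD3 in the cytoplasm, fell by 0.38 (limma adjusted p 0.0128), and GTPBP4, a GTPase of early nuclear particles, by 0.34 (0.0221). The call of GTPBP4 was lost under 5 of the 12 other settings of the FPKM fit. GNL2, which acts late in the nucleus, was at 74.7, 64.8 and 82.6 FPKM against 67.7, 64.5 and 70.2 FPKM, with the groups interleaved (-0.13, limma adjusted p 0.406).

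GNL3L (hg19 chrX:54556644-54593720, plus strand), the nucleostemin paralog, was the only gene of the 42 with a positive estimate. It was at 14.02, 15.7 and 11.1 FPKM in siControl and 15.6, 17.3 and 13.0 FPKM in siChe-1. The groups overlapped over most of their range, and the change of 0.16 ± 0.15 was not called (limma adjusted p 0.443). On recovered reads it was 0.14 (edgeR adjusted p 0.373).

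Among the AAA ATPases, their partners and the ITS2 processing factors, 2 of 5 tested genes fell. WDR74 (hg19 chr11:62600383-62607628, minus strand), a protein that NVL removes from the particle, showed the largest change. It was at 43.6, 58.6 and 52.4 FPKM in siControl and 27.4, 32.8 and 32.0 FPKM in siChe-1, with a wide gap between the groups (-0.72 ± 0.12, limma adjusted p 0.00582). NVL itself was at 17.8, 20.02 and 18.4 FPKM against 16.2, 18.7 and 18.4 FPKM, with overlapping groups (-0.08, limma adjusted p 0.543). MDN1, the giant AAA ATPase that strips early factors, was at 22.4, 22.9 and 24.0 FPKM against 19.6, 19.8 and 22.3 FPKM. The groups of MDN1 just missed touching, and the change was not called in limma (-0.16, adjusted p 0.151) but was in edgeR on reads (-0.30, adjusted p 0.0435). Without siControl replicate 1, and without siControl replicate 3, that read call was lost.

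SENP3, a SUMO protease of the nucleolus, fell by 0.33 (limma adjusted p 0.0216), though its locus also holds EIF4A1 and 3 small nucleolar RNAs. For SENP3 edgeR on reads gave -0.43 with an adjusted p of 0.0534. Its limma call was lost under 5 of the 12 other settings of the FPKM fit. LAS1L, the endonuclease that cuts ITS2, was at 29.998, 33.998 and 37.8 FPKM against 23.7, 28.9 and 27.2 FPKM, without overlap (-0.34, limma adjusted p 0.0509). NLE1, a substrate of MDN1, was under the minimum, at 6.42, 9.09 and 8.33 FPKM against 5.35, 6.59 and 6.16 FPKM, with a slight overlap. Its recovered reads of 687, 825 and 788 against 545 and 517 gave -0.54 (edgeR adjusted p 0.00627).

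The late and export factors divided into 2 that fell and 2 that were not called. SDAD1 (hg19 chr4:76871068-76912113, minus strand), homolog of a yeast factor needed for nuclear export, was at 52.7, 48.6 and 58.1 FPKM in siControl and 33.4, 28.7 and 34.6 FPKM in siChe-1, far apart (-0.70 ± 0.10, limma adjusted p 0.00311). MRTO4, which holds the place of the stalk protein, fell from 51.7 ± 5.08 to 34.1 ± 1.61 FPKM (SD, n = 3; -0.58, limma adjusted p 0.00407). NMD3, the export adaptor, was at 44.4, 34.9 and 38.2 FPKM against 37.3, 34.8 and 30.4 FPKM, with overlapping groups (-0.19, limma adjusted p 0.248). RSL24D1, which holds the place of a late ribosomal protein, was among the most abundant, at 142, 153 and 148 FPKM against 135, 144 and 133 FPKM. Its groups overlapped slightly (-0.10, limma adjusted p 0.412), and reads of RSL24D1 may be shared with 9 pseudogenes that carry its name in GENCODE. The same limit holds for SDAD1, with 4 such pseudogenes.

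Whole reads per library, recovered from the authors' group means for 5 libraries, gave a similar count. On these edgeR with TMM scaling called 33 of 44 lower and 0 higher, against 14.8% and 14% of 12467 genes, with a median change of -0.48. Without siChe-1 replicate 2, 21 of 44 were called lower, against 8.47% of all genes. Of the 44, 23 were called in both fits, 3 in the FPKM fit only (DDX56, SENP3 and PPAN), 10 in the read fit only and 8 in neither. The libraries of the 2 fits overlap, so that they are not independent of each other. In the authors' deposited table of transcripts, 30 of the 60 transcripts of these genes were lower at q under 0.05, 1 for each of 30 genes, and 0 were higher, against 10.3% and 7.98% of 18716 transcripts.

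Against the external spike-in RNAs most genes were called lower, and the median fall of the assembly factors was larger than that of all genes. This fit uses the same recovered reads as the TMM fit, with other scaling factors for the libraries. A factor shifts all genes of a library alike. The gap between the assembly factors and all genes therefore repeats the relative result and adds no separate evidence. On spike-in size factors edgeR called 44 of 44 lower, against 84.3% of all genes and with 0.193% of all genes higher, so that the count itself is near the background. This fit holds siChe-1 replicates 1 and 2 only. They had more spike-in reads than any siControl library, while siChe-1 replicate 3, which is not in this table, had 379232, inside the siControl range of 351573 to 519573. How its genes stood against its spike-ins is unknown. Without siChe-1 replicate 2, 38 of 44 were called lower, against 22.4% of all genes. The median change was -1.74 for the 44 and -1.24 for all genes. The reads had been recovered from the authors' deposited table. It gave 43 of 44 as lower at an adjusted p under 0.05, against 63.5% of 12591 genes (0.0635% were higher). The values ran from -2.43 for MAK16 (adjusted p 8.46e-06) to -1.11 for GNL3L (adjusted p 0.0184) in the authors' deposited table, PPAN aside. PPAN was the gene not called (-1.47, adjusted p 0.313 in the authors' deposited table). In all 44 genes both siChe-1 libraries were below all siControl libraries on this scale, as in 89.5% of all genes.

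Normalized to the spike-ins, MAK16 had 2428, 3434 and 3829 reads in siControl replicates 1 to 3 and 609 and 590 reads in siChe-1 replicates 1 and 2. GNL3L, the least changed, had 3367, 5255 and 4366 reads against 2159 and 1864 reads. Both genes were thus lower in siChe-1 on this scale without overlap, MAK16 by far more. The median of the 44 genes in each library was -0.37, 0.18 and 0.21 for siControl, then -1.56 and -1.86 for siChe-1, against -0.38, 0.21 and 0.18 and then -1.09 and -1.33 for all tested genes. The siControl medians of both sets moved together, and in each siChe-1 library the assembly factors were the lower set. That gap does not come from the spike-in factors, which both sets share.

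**Figure D4:**
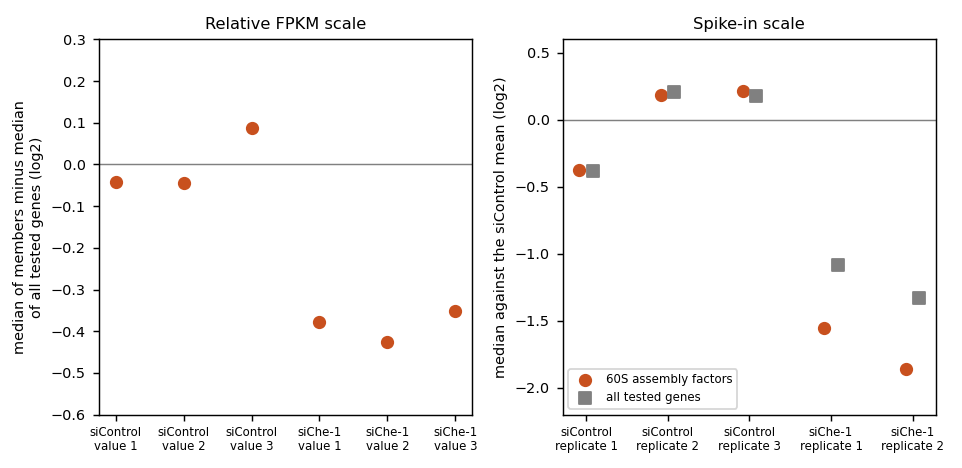
Left, median of the 42 tested genes minus that of all tested genes in each library on the relative FPKM scale (log2; list values without replicate number). Right, median of the 44 genes (circles) and of all tested genes (squares) in the 5 libraries of the spike-in table, against the siControl mean (log2). The siChe-1 points on the left lie at -0.35 to -0.43, and on the right the circles lie below the squares in both siChe-1 libraries (-1.56 against -1.09, and -1.86 against -1.33).

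Other genes of the pathway were taken from lists outside the set, and some of each list fell, where 15.1% of all tested genes were lower. Of 30 tested factors of the large subunit that are not among the 44 (35 listed), 11 were lower, 1 was higher and 18 were not called in limma, with a median change of -0.31 relative to all genes. Their smallest p-values were those of LYAR (-0.71, adjusted p 0.00633), the nucleolar protein MKI67IP (-0.52, adjusted p 0.00673) and BCCIP (-0.50, adjusted p 0.00887). Of the 30, 25 had a negative value. SPATA5, the AAA ATPase that removes RSL24D1 from the particle, was the only gene of this list called higher. It went from 11.001, 9.50 and 9.58 FPKM to 14.2, 13.1 and 15.1 FPKM (0.46, limma adjusted p 0.0135). It rose without overlap, though edgeR on reads gave 0.30 with an adjusted p of 0.0551. SPATA5 was named after its value was seen. Of 45 tested factors of the small subunit (50 listed) 24 were lower, 0 higher and 21 not called, with a median of -0.32. They were led by WDR3 (-0.69, limma adjusted p 0.00116) and by NOL10 (-0.56, limma adjusted p 0.00187), a partner of AATF in the small-subunit processome. NGDN, another partner of AATF in this list, was not called (-0.20, limma adjusted p 0.242). NGDN was named after its value was seen. Of 11 tested RNA polymerase I and rDNA factors (15 listed), 5 were lower, 0 higher and 6 not called, with a median of -0.23. POLR1E, a polymerase I subunit, and the initiation factor RRN3 led these (-0.47 and -0.41, limma adjusted p 0.00489 and 0.00689). The median of the 44-gene set was the lowest of the 4 lists, and whether the lists differ was not tested.

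**Figure D5:**
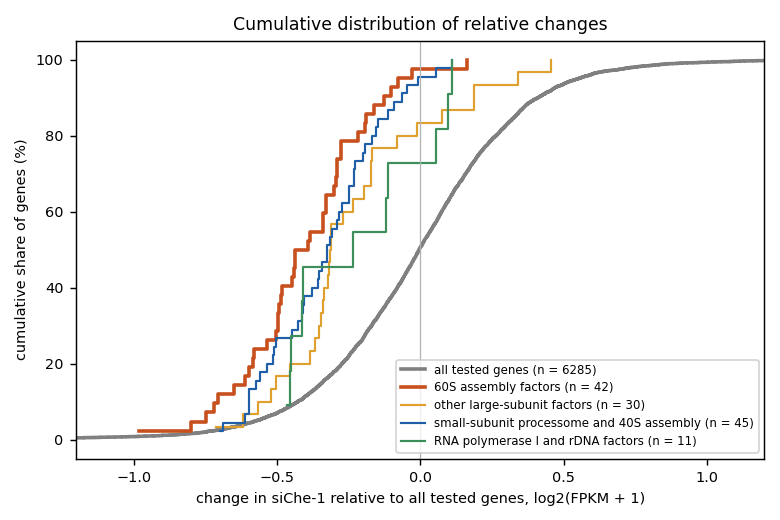
Cumulative share of genes (percent, y axis) at or below a given relative log2 change on the log2(FPKM + 1) scale (x axis) for the 42 tested assembly factors, all 6285 tested genes, 30 other large-subunit factors, 45 small-subunit factors and 11 RNA polymerase I and rDNA factors. The curve of the assembly factors lies left of that of all genes, and its median is at -0.41 against -0.00.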

How the data were processed

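RNA of KMS-27 cells was sequenced in 3 siControl and 3 siChe-1 libraries, from 500 ng of total RNA after rRNA removal, per the labels' protocols. The submitters' processing notes name HTSeq, DESeq2, TopHat, Cufflinks and Cuffdiff with build hg19. The sources used here state no versions, roles or strand use in counting. The deposited files hold a raw count of reads per spike-in for each library. They also hold, per the file headers, a signal for each gene (the authors' spike-in-normalized read count averaged over a group) with their ratio (fold change), log2 fold change, p-value and adjusted p, and a transcript table with the authors' group FPKM, 3 FPKM per group, log2 ratio, p-value and q-value. Coordinates are those of the deposited loci, made 1-based, and 10 of the 44 genes share their locus with another gene. Of these GNL3, MAK16, NIP7, NOC2L, PPAN, RPF1 and SENP3 were called lower in limma, and CEBPZ, FTSJ3 and GNL2 were not called.

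Whole reads per library were recovered from the authors' means for 16320 of 16444 genes (99.2%, all 44 genes here, 39 to 13541 reads each), at a relative tolerance of 1e-14, which 100% of low means met with siControl 1 to 3 and siChe-1 1 and 2 and 0% met with another siChe-1 pair. FPKM were summed by gene, kept at a mean of at least 10, rescaled by the median of ratios, and log2(FPKM + 1) was tested with limma 3.58.1 with a mean-variance trend. Recovered reads (mean of at least 10 normalized reads) were tested with edgeR 4.0.16 (quasi-likelihood, TMM or spike-in factors) in R 4.3.3, with DESeq2 1.42.0 as an alternative. All tests were two-sided, with Benjamini-Hochberg adjustment over all tested genes and a threshold of 0.05. Both relative fits were tested on simulated data in which 200 genes had been shifted, with rises and falls in equal number. Reads were drawn with the same dispersion (spread between libraries) for every gene, and FPKM with independent normal errors. The rates below hold for these settings only. For the FPKM fit (6285 genes), limma found 45.5% of the genes shifted by 0.5 on the log2 scale (3 false calls) and 88% of those shifted by 1 (12 false calls). For reads with TMM (12434 genes), edgeR found 41.5% (5 false calls) and 91% (7 false calls). The spike-in fit was not simulated. Other settings, listed in the closing section, changed 1 choice at a time.

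The 44 genes and all lists were chosen with earlier results of these data known. In each role group the gene with the smallest p, the most abundant gene and every gene not called is given per library, as is AATF; NOP16, SURF6 and PPAN are shown in addition, chosen after their values were seen. Of the other lists the 2 or 3 smallest p are named, with SPATA5 and NGDN in addition.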

Additional observations from a re-analysis of the deposited data

How the results depend on the processing

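On the FPKM scale the count of assembly factors called lower was 26. It was 27 with a pseudocount of 0.1, 28 with a minimum of 5 FPKM, 30 with a minimum of 1, with none and on the FPKM as deposited, and 19 with upper-quartile scaling. Leaving out each library in turn gave 17 to 26, and the lowest came without the third siControl value. In those 12 settings 0 were called higher, and the median difference from all genes ran from -0.35 to -0.47. Of single genes, RPF1, RRS1, GTPBP4 and SENP3 lost their call in 5 of the 12 settings, DDX24, DDX55 and DDX56 in 6, NOC2L in 2 and PPAN in 1, and the other 17 in none. On recovered reads the count was 33, and 33 or 34 under other size factors, DESeq2 and no minimum. Leaving out libraries gave 21 to 37, lowest without siChe-1 replicate 2. On the spike-in scale it was 44 under 3 other settings and 38 to 44 with libraries left out. The authors' 43 did not move with other minimum values. On the relative read scale CEBPZ, DDX24, DDX27, FTSJ3, MDN1 and NOC3L lost their call without siControl replicate 1 and without siControl replicate 3. DDX55, LAS1L and RPF1 lost it without siControl replicate 3, and RPF2 with DESeq2. The estimate of DDX54 was 0.031 with upper-quartile scaling, where the median of all genes was 0.06, and ran from -0.071 to 0.026 with 1 FPKM value left out (above 0 without the second siControl or the first siChe-1 value). On reads it ran from -0.31 to 0.047 (above 0 without siChe-1 replicate 2), and PPAN from -0.38 to 0.28 (above 0 without siControl replicate 2), with 1 library left out. The cause was not tested.

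With replicate number as a block (siControl and siChe-1 1 and 2 share numbers) 34 were lower on the relative read scale. On the spike-in scale 0 were, where the block fit called 59 genes in all (58 lower, 1 higher). The labels do not say that the numbers pair libraries, and only 2 are shared. Deviations of siChe-1 1 correlated 0.39 with siControl 1, -0.40 with siControl 2 and 0.14 with siControl 3 over 9947 genes. Those of siChe-1 2 are the same with the opposite sign, since the table holds only 2 siChe-1 libraries.

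FPKM keep no read depth. Genes with few reads, such as PPAN, are limited most.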

Other observations

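Across the 42 tested genes the rank correlation of mean FPKM with the relative change was 0.01, and over all 6285 tested genes it was -0.20. These are descriptions across genes of the same 6 libraries, and both measures come from the same FPKM. The median level of the tested assembly factors was 34.2 FPKM, against 28.3 FPKM for all tested genes.

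In WDR12, EBNA1BP2 and RPF2 the second deposited value was the lowest of both groups. In WDR12 it was 59.6 FPKM in siControl and 45.7 FPKM in siChe-1.

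The read-through gene PPAN-P2RY11 was at 8.92, 9.99 and 10.01 FPKM in siControl and 7.38, 7.89 and 8.05 FPKM in siChe-1, and had 18, 30 and 18 recovered reads in siControl and 11 and 14 in siChe-1. The downstream gene P2RY11 had 14, 45 and 33 reads against 21 and 34 reads. The sources used here do not state how reads common to these genes were counted.

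Of the 44 genes 34 had 1 transcript in the deposited table and 10 had more. Pseudogenes that carry the gene's name in GENCODE exist for 13, among them RSL24D1 (9), DDX18 (5) and SDAD1 (4). Of the 13, BRIX1, DDX55, NIP7, NOC2L, PES1, SDAD1 and SURF6 were called lower in limma. Not called were DDX18, GNL2, GNL3L, NMD3, RPF2 and RSL24D1. Of all 42 tested genes 26 were called lower.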
